A study of Drosophila melanogaster with 24 samples.

Results

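The genes described here are 10 regulators and effectors of *Drosophila* hemocytes, the blood cells of the fly: *srp*, *gcm*, *gcm2*, *ush*, *lz*, *Pvr*, *crq*, *drpr*, *Pxn* and *Hml*. They were chosen by name and found by their symbol in the table of counts per gene, in which they are 10 of 17476 genes. All 10 were matched, and all 10 had enough counts to pass the filter on low expression in every comparison below.

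Hemocytes of the embryo arise from the head mesoderm. The GATA factor Serpent, encoded by *srp*, gives these cells their blood identity, and U-shaped, the Friend-of-GATA partner encoded by *ush*, binds GATA factors and changes what they do. The transcription factors Glial cells missing and Gcm2 then direct most of the precursors into plasmatocytes, the phagocytes that eat dying cells and lay down basement membrane, whereas the Runt-domain factor Lozenge, encoded by *lz*, directs a smaller number into crystal cells, which carry the prophenoloxidases used in melanization. Plasmatocytes survive and migrate through signals received by the receptor tyrosine kinase Pvr from the PDGF- and VEGF-related ligands Pvf1, Pvf2 and Pvf3. The cells recognize corpses with the scavenger receptor Croquemort (*crq*) and the engulfment receptor Draper (*drpr*), secrete the matrix enzyme Peroxidasin (*Pxn*), and later make Hemolectin (*Hml*), a large clotting protein. *gcm* and *gcm2* also act in glia, *ush* and *srp* have roles in other tissues such as the amnioserosa and the fat body, and *drpr* is used by glia for engulfment.

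The study compared RNA of mesodermal cells in embryos that lacked, or had too much of, the Fox transcription factors of cardiac progenitors Jumeau, encoded by *jumu*, and Checkpoint suppressor 1-like, encoded by *CHES-1-like*. The sorted cells carried *twi-GAL4*, which drives expression in the mesoderm, and *UAS-2EGFP*. They were sorted by GFP from dissociated embryos aged for 6 to 8 h. For *jumu* loss-of-function the parents carried the deficiency over *TM3*, so not every dissociated embryo had both transgenes. The 24 samples were 4 biological replicates of each of 6 genotypes. Wild-type cells were *twi-GAL4 UAS-2EGFP/+*. The *jumu* loss-of-function cells had *twi-GAL4 Df(3R)Exel6157* over *UAS-2EGFP Df(3R)Exel6157*, without *jumu* on either chromosome. The *CHES-1-like* loss-of-function cells carried *Df(1)CHES-1-like1* with *twi-GAL4 UAS-2EGFP/+*. The double loss-of-function cells combined *Df(1)CHES-1-like1* with *twi-GAL4 Df(3R)Exel6157* over *UAS-2EGFP Df(3R)Exel6157*. The *jumu* overexpression cells had *twi-GAL4 UAS-2EGFP* over *UAS-jumu*, and the *CHES-1-like* overexpression cells had it over *UAS-CHES-1-like*. A deficiency can remove neighbouring genes as well as the gene it is used for, each Fox gene was removed by a single allele, and its overexpression was driven in mesoderm by the same *twi-GAL4* that drove GFP.

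The 24 libraries held between 15197022 and 72519855 counts. The targeted genes were lower where the labels give a loss and higher where they give overexpression, although *jumu* was not reduced to 0 by its deficiency. *jumu* was at 122 ± 3.50 CPM (counts scaled to library size; SD, n = 4) in wild-type, 29.9 ± 1.94 in *jumu* loss-of-function and 676 ± 32.4 in *jumu* overexpression, and *CHES-1-like* was at 156 ± 3.41 CPM in wild-type, 1.14 ± 0.487 CPM after its loss and 1532 ± 160 CPM after its overexpression. In the double genotype *jumu* was at 21.9 ± 1.87 CPM and *CHES-1-like* at 1.20 ± 1.05 CPM. Mesodermal markers were present in all groups: *twi*, whose promoter drove the sort, lay between 18.2 and 30.3 CPM in all 24 samples. Summed over 10 mesodermal genes, the level was 1775 to 1844 CPM in wild-type. This sum was lower in every sample without *jumu* (1563 to 1771 CPM) or without *CHES-1-like* (1564 to 1747 CPM). In the double it was 1470 to 2026 CPM, with excess *jumu* 1432 to 1827 CPM and with excess *CHES-1-like* 1545 to 2000 CPM. Replicate 2 of the double loss-of-function stood apart from its group (median correlation of log2 CPM with the other 3 replicates 0.969, against 0.996 for each of them), and replicate 1 of *CHES-1-like* overexpression did so less (0.983). Results for the members that rest on either group are given with and without that library, and for other genes the value without it is given where the call changes. Protein-coding genes took 44.9 to 48.6% of the counts in wild-type, 30.7 to 38.0% without *CHES-1-like* and 59.7 to 61.8% without both genes. The share was 41.0 to 44.8% without *jumu* and 37.4 to 48.2% with excess *CHES-1-like*. It varied most within *jumu* overexpression, from 35.2% in replicate 1 to 57.6% in replicate 3. For that reason the scaling of the libraries, here TMM factors over all genes, matters for some of the comparisons below.

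In wild-type, the members covered a wide range of expression. Per kilobase of annotated exon, *Pxn* had the highest level (73.6 CPM per kb), followed by *crq* (50.7), *srp* (38.4), *Pvr* (29.2), *drpr* (28.5) and *gcm* (26.6). *ush* followed at 10.3 CPM per kb, *gcm2* at 2.70, *lz* at 1.02 and *Hml* at 0.0779. Other late plasmatocyte genes were also nearly silent at this age: *He*, which encodes the pan-hemocyte antigen Hemese, lay between 0.0585 and 0.202 CPM in wild-type, and *eater*, a phagocytic receptor gene, between 0.0205 and 0.117 CPM, where 3 counts corresponded to between 0.0414 and 0.191 CPM. *Hml*, the marker of later hemocytes, rested on 74, 49, 8 and 85 counts in the 4 wild-type libraries. In these bulk samples, fewer cells of a type and less RNA per cell cannot be told apart.

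**Figure D1:**
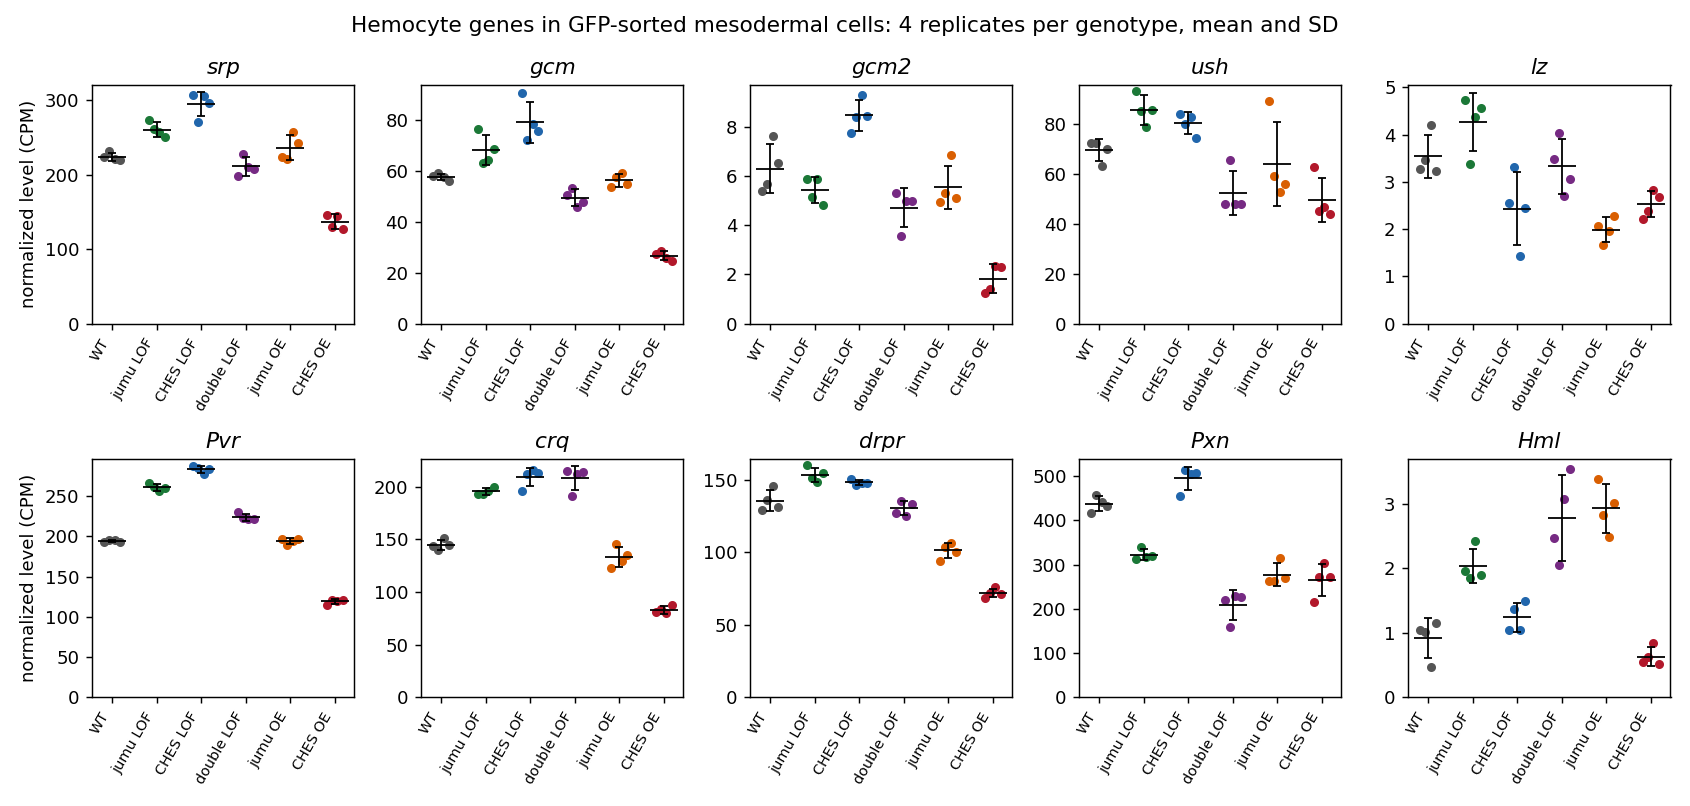
Normalized level (CPM, with TMM factors over all 24 samples) of each member in each sample, by genotype (WT, wild-type; LOF, loss-of-function; OE, overexpression; CHES, *CHES-1-like*), with points for the 4 replicates, dashes for the mean and bars for the SD. *srp*, *gcm*, *gcm2*, *Pvr*, *crq* and *drpr* have their lowest points in *CHES-1-like* overexpression, *Pxn* its lowest mean in the double loss-of-function, and *Hml* its highest means in *jumu* overexpression and the double loss-of-function.

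The blood GATA factor *srp* (FBgn0003507, chromosome arm 3R, 15986152 to 16004085 on the plus strand of Release 6 of the genome) was measured at 224, 232, 222 and 219 CPM in the 4 wild-type samples. In *CHES-1-like* overexpression it was at 147, 129, 144 and 126 CPM, and after loss of *CHES-1-like* at 307, 271, 305 and 296 CPM. All 4 overexpression samples therefore lay below, and all 4 loss-of-function samples above, every wild-type sample. With library totals as the scale, the log2 fold change of *srp* without *CHES-1-like* was −0.142. In order of mean level the genotypes were *CHES-1-like* loss-of-function, *jumu* loss-of-function, *jumu* overexpression, wild-type, double loss-of-function and *CHES-1-like* overexpression. Between neighbours in this order the samples overlapped, except that *CHES-1-like* overexpression lay apart below the double loss-of-function.

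Its partner gene *ush* (FBgn0003963, 2L, 476220 to 540560, plus strand) was measured at 72.2, 72.3, 62.8 and 69.8 CPM in wild-type. The double loss-of-function samples were at 47.7, 65.6, 47.7 and 47.8 CPM, so that replicate 2 lay within the wild-type range and the other 3 lay below it. The 4 *jumu* loss-of-function samples (78.5 to 92.8 CPM) and the 4 *CHES-1-like* loss-of-function samples (74.1 to 83.9 CPM) lay above all wild-type samples. On the scale of library totals, the log2 fold change of *ush* was −0.33 without *CHES-1-like* and 0.134 without *jumu*. The transcripts of *ush* overlap those of a noncoding RNA gene, *lncRNA:CR46258*, on the same strand, and *srp* overlaps *lncRNA:CR44133* in the same way. These noncoding genes held 2254 and 268 counts over all 24 samples.

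The plasmatocyte determinant *gcm* (FBgn0014179, 2L, 9579498 to 9581745, minus strand) had 57.9, 59.1, 57.9 and 56.2 CPM in wild-type, and its neighbour and paralogue *gcm2* (FBgn0019809, 2L, 9608562 to 9612706, plus strand) had 5.37, 5.66, 7.60 and 6.51 CPM. In *CHES-1-like* overexpression *gcm* was at 27.4, 28.7, 25.9 and 24.6 CPM and *gcm2* at 1.24, 1.40, 2.35 and 2.31 CPM. In this genotype both genes were below every other sample of the series. *gcm* was also lower in all 4 double loss-of-function samples (45.9 to 53.6 CPM) than in wild-type, and higher in all 4 samples of each single loss-of-function (63.4 to 76.5 CPM without *jumu*, 72.3 to 90.7 CPM without *CHES-1-like*). On the scale of library totals, the log2 fold change of *gcm* was 0.093 in the double loss-of-function, −0.072 without *CHES-1-like* and 0.075 without *jumu*. *gcm* and *gcm2* are related in sequence, and whether reads that match both were counted for either is not given in the sources used here.

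*lz* (FBgn0002576, X, 9284649 to 9303636, plus strand), the determinant of crystal cells, was low, with 3.27, 3.47, 4.21 and 3.23 CPM in wild-type. It was lowest in *jumu* overexpression, at 2.07, 1.66, 1.96 and 2.27 CPM, all below the wild-type samples. In *CHES-1-like* loss-of-function it ranged from 1.42 to 3.31 CPM and overlapped wild-type. The value of 1.42 CPM rests on 19 counts.

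The receptor gene *Pvr* (FBgn0032006, 2L, 8220980 to 8239878, minus strand) was at 193, 195, 196 and 193 CPM in wild-type. The samples fell into separate bands, with *CHES-1-like* loss-of-function at 277 to 288 CPM, *jumu* loss-of-function at 256 to 266, the double loss-of-function at 221 to 230, *jumu* overexpression at 189 to 197 and *CHES-1-like* overexpression at 115.1 to 121.1. Only *jumu* overexpression and wild-type overlapped. These bands hold with TMM factors. With library totals as the scale, *Pvr* without *CHES-1-like* was at 0.004 on the log2 scale against wild-type. The double loss-of-function was then above *CHES-1-like* loss-of-function, by 0.523.

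The corpse receptor *crq* (FBgn0015924, 2L, 448254 to 453024, minus strand) was at 143, 139, 151 and 145 CPM in wild-type. All 3 loss-of-function genotypes lay above this range and overlapped one another, with 193 to 200 CPM without *jumu*, 196 to 216 without *CHES-1-like* and 191 to 215 without either. In *CHES-1-like* overexpression *crq* was at 81.1, 83.3, 79.7 and 87.7 CPM, below all other samples. Exons of *ex* on the opposite strand share 448 bases with *crq*, and *ex* was itself at 53.8 to 60.1 CPM in wild-type and 30.4 to 46.3 CPM in *CHES-1-like* overexpression.

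*drpr* (FBgn0027594, 3L, 1715595 to 1731107, minus strand), the engulfment receptor also used by glia, was at 129, 136, 146 and 131 CPM in wild-type. It was at 94.4, 104, 107 and 101 CPM in *jumu* overexpression and at 68.9, 71.8, 76.0 and 71.4 CPM in *CHES-1-like* overexpression. The 3 groups did not overlap, and the double loss-of-function (125 to 136 CPM) overlapped wild-type.

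*Pxn* (FBgn0011828, 3L, 2601455 to 2630064, minus strand) had 418, 458, 443 and 434 CPM in wild-type. It was at 312, 340, 318 and 319 CPM in *jumu* loss-of-function, at 220, 158, 229 and 227 CPM in the double loss-of-function, at 263, 262, 315 and 270 CPM in *jumu* overexpression and at 216, 272, 303 and 273 CPM in *CHES-1-like* overexpression. All samples of these 4 genotypes lay below wild-type, and the *CHES-1-like* loss-of-function samples (456 to 513 CPM) reached from within the wild-type range to above it. *Pxn* was thus low both without *jumu* and with too much of it.

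*Hml* (FBgn0029167, 3L, 13846054 to 13860001, plus strand) was at 1.05, 1.00, 0.468 and 1.14 CPM in wild-type. It was at 1.96, 1.85, 2.42 and 1.89 CPM in *jumu* loss-of-function, at 2.46, 2.04, 3.07 and 3.54 CPM in the double loss-of-function and at 3.39, 2.83, 2.48 and 3.00 CPM in *jumu* overexpression. All 12 of these samples were above all 4 wild-type samples. The samples without *CHES-1-like* (1.04 to 1.496 CPM) and those with an excess of it (0.515 to 0.834 CPM) overlapped wild-type. Like *Pxn*, *Hml* thus differed from wild-type on the same side when *jumu* was lost and when it was overexpressed, but on the opposite side from *Pxn*.

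Which of these differences passed the test was asked next. A gene is said here to rise or fall where edgeR's quasi-likelihood test gave a False Discovery Rate (FDR, Benjamini-Hochberg) below 0.1 and the log2 fold change was beyond 0.5 or −0.5, and 12234 genes could be called in this way in each comparison. The 5 comparisons with wild-type share the same 4 wild-type samples and are not independent of one another.

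**Figure D2:**
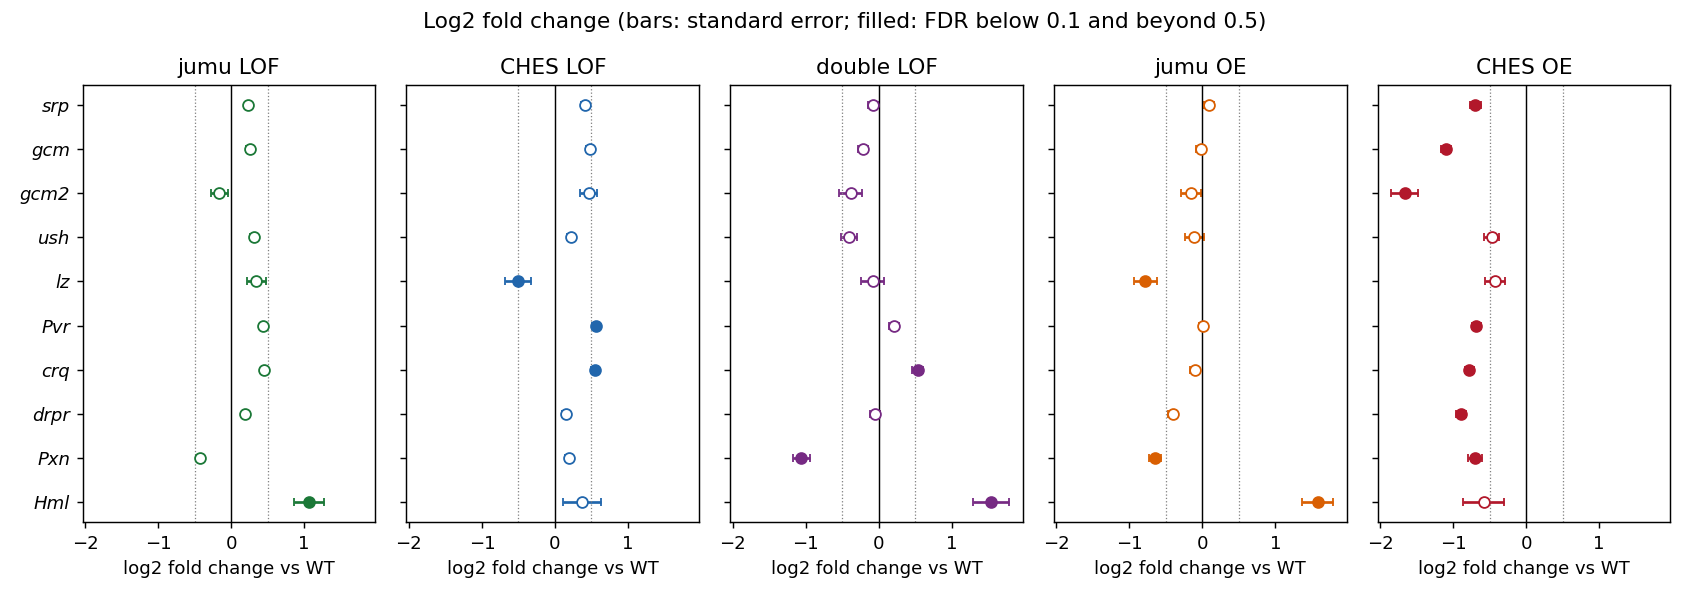
Log2 fold change of each member against wild-type in the 5 other genotypes (WT, wild-type; LOF, loss-of-function; OE, overexpression; CHES, *CHES-1-like*), with bars for the standard error from the edgeR fit, filled points for genes that passed the test and dotted lines at 0.5 and −0.5. In *CHES-1-like* overexpression all 10 points lie below 0 and 7 are filled.

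Overexpression of *CHES-1-like* in the mesoderm lowered most of the members. *gcm2* fell by 1.66 ± 0.19 (SE) on the log2 scale, to a 3.17-fold lower level (FDR = 7.28e-06), and *gcm* fell to a 2.14-fold lower level (SE 0.07 on the log2 scale, FDR = 2.31e-08). *drpr* fell by 0.89 ± 0.07 (FDR = 1.28e-07), *crq* by 0.78 ± 0.06 (FDR = 3.65e-07), *Pxn* by 0.70 ± 0.09 (FDR = 2.95e-05), *srp* by 0.69 ± 0.07 (FDR = 3.03e-06) and *Pvr* by 0.68 ± 0.06 (FDR = 7.05e-07). In all, 7 of the 10 members fell and 0 rose, where 16.5% of all genes tested fell. The 10 members had a median of −0.70 on the log2 scale, against 0.01 over all genes tested. *ush* (−0.47 ± 0.10, FDR = 0.0024), *lz* (−0.42 ± 0.14, FDR = 0.029) and *Hml* (−0.58 ± 0.28, FDR = 0.134) were lower in the fit without passing the criteria. Without replicate 1, the same 7 genes fell and *ush* passed too, at −0.63.

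Other genes of plasmatocytes fell in the same genotype. Of 14 genes on a list of plasmatocyte effectors, 12 passed the filter on low expression, 8 fell and 0 rose, and the median of the list was −0.72. The largest falls were in *Ppn*, which encodes the matrix protein Papilin (−1.29), in *Col4a1* and *vkg*, the collagen IV genes (−1.15 and −0.98), and in the scavenger receptor gene *Sr-CI* (−0.89). *Ppn* went from 4278 CPM in wild-type to 1723 CPM, and *vkg* from 168 to 175 CPM in the wild-type samples to 69.5 to 95.01 CPM. *He* was found in all 4 wild-type libraries at or near the counting limit and had 0 counts in all 4 *CHES-1-like* overexpression libraries, where 3 counts would be between 0.0480 and 0.132 CPM, and it was under the filter on low expression in this comparison and was not called. Of the 3 crystal cell genes, *PPO2*, a prophenoloxidase gene, fell by 0.51 and *peb*, which encodes the zinc finger factor Hindsight, fell by 0.73, whereas the log2 fold change of *PPO1* was 0.14. Without replicate 1, *PPO2* was at −0.42 and no longer passed, and among the effectors *sn* passed too, at −0.52.

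The falls were not restricted to blood genes. Of 7 glial genes, 6 fell, among them *moody* (−1.11), which encodes a receptor of the blood-brain barrier, and *loco* (−0.71), which encodes a regulator of G protein signalling, whereas *repo*, the glial determinant and a target of Gcm, was at 0.01. Of the 4 amnioserosa genes that passed the filter, 4 fell, with *Doc3* lowest at −1.17, and *zen*, the fifth of that list, was nearly silent in wild-type (0 to 0.202 CPM). The GATA factor gene *pnr* fell by 1.07 and the visceral mesoderm gene *bap* by 1.102, and of 10 mesodermal genes 2 fell, and 3 without replicate 1. The summed level of the glial list was 270 to 289 CPM in *CHES-1-like* overexpression and 476 to 490 CPM in wild-type, and that of the amnioserosa list 68.1 to 81.5 and 122 to 128 CPM. Of 5 genes of epidermis and trachea 3 fell. Other lists held rises: *svp* and *Lsd-1* of 4 fat body genes, and *Syt1* and *fne* of 6 neuronal genes. *svp* is not specific to the fat body, as the study used its protein to mark a class of cardial cells. The summed fat body level was 258 to 345 CPM, against 210 to 226 CPM in wild-type. The neuronal sum was 458 CPM in replicate 1 and 239 to 278 CPM in the others, against 263 to 300 CPM in wild-type. The part of glia, amnioserosa and fat body in the falls of *gcm*, *gcm2*, *drpr*, *srp* and *ush*, which these cell types also use, was not tested.

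Overexpression of *jumu* gave a different set of changes. *Hml* rose by 1.58 ± 0.21 on the log2 scale (2.99-fold, FDR = 7.72e-05), *lz* fell by 0.78 ± 0.16 (FDR = 0.0023) and *Pxn* fell by 0.65 ± 0.08 (FDR = 2.58e-05). These 3 were called among the 10 members, 1 higher, where 7.99% of all genes rose, and 2 lower, where 7.68% fell. *drpr* had a log2 fold change of −0.41 ± 0.07 (FDR = 4.24e-04), within the fold criterion. The regulators *srp* (0.09), *gcm* (−0.02), *gcm2* (−0.15) and *ush* (−0.11) and the receptor genes *Pvr* (0.01) and *crq* (−0.11) had FDR values from 0.32 to 1.00. The median of the 10 members was −0.11, against 0.01 over all genes. Of the 3 crystal cell genes 0 were called on the TMM scale, and their summed level was 335.5 to 423 CPM, below the 460.8 to 493.4 CPM of wild-type. Among plasmatocyte effectors, 2 of 14 rose, *NimC1* (1.83), which encodes a phagocytosis receptor, and *SPARC* (0.67), which encodes a collagen-binding matrix protein, and 0 fell. With library or protein-coding totals 4 rose. *NimC1* rested on 13 to 52 counts in these libraries. The summed level of the effector list was 4772 to 5198 CPM, below the 5695 to 6046 CPM of wild-type. Of 4 fat body genes 2 rose, *apolpp* (1.12), a lipoprotein gene, and *Lsd-1* (0.60), a lipid droplet gene, and the part of that tissue in the rise of *Hml* was not tested.

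The overexpression genotypes were also compared directly. *Hml* was 4.55-fold higher with *jumu* than with *CHES-1-like* (log2 2.19 ± 0.22, FDR = 3.97e-06), *gcm2* 2.91-fold (FDR = 4.20e-05), *gcm* 2.12-fold (FDR = 2.65e-07), *srp* 1.73-fold (FDR = 1.78e-05), *Pvr* 1.63-fold (FDR = 9.22e-06) and *crq* 1.60-fold (FDR = 2.15e-05). Thus 6 of 10 members were called higher and 0 lower, where 18.1% of all genes were higher. *Pxn* differed by 0.06 ± 0.11 on the log2 scale (FDR = 0.765), having fallen in both genotypes, and *lz* by −0.35 ± 0.18 (FDR = 0.160). *drpr* was at 0.49 ± 0.08 (FDR = 2.10e-04), just within the fold criterion. Of the plasmatocyte effectors 10 of 14 were higher and 0 lower. Without replicate 1 of *CHES-1-like* overexpression these 6 members were called as before and *ush* passed too, at 0.51.

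Loss of single Fox genes was compared with wild-type next. Without *jumu*, *Hml* rose by 1.07 ± 0.21 on the log2 scale (2.10-fold, FDR = 3.33e-04), which was 1 of 10 members called, with 9.83% of all genes rising, and 0 members fell. With library totals as the scale *Pxn* passed as well, at −0.614. *crq* (0.45 ± 0.04, FDR = 6.25e-08), *Pvr* (0.44 ± 0.04, FDR = 4.96e-08), *ush* (0.31 ± 0.05, FDR = 1.31e-04), *gcm* (0.26 ± 0.05, FDR = 8.94e-04), *srp* (0.23 ± 0.05, FDR = 4.80e-04) and *drpr* (0.20 ± 0.05, FDR = 0.0037) passed the FDR but not the fold criterion, as did *Pxn* with the opposite sign (−0.43 ± 0.05, FDR = 4.33e-07). Their 4 samples did not overlap those of wild-type. Of the 14 plasmatocyte effectors, 12 passed the filter, 7 rose and 0 fell (5 rose with library totals or protein-coding totals as the scale). *NimC1* was at 2.03 to 2.17 CPM without *jumu* and 0.117 to 0.242 CPM in wild-type, a log2 fold change of 3.48. *Glt* (1.20), which encodes glutactin of the basement membrane, *vkg* (0.99) and *Col4a1* (0.95) also rose, with *Sr-CI*, *SPARC* and the fascin gene *sn*. Collagen IV is also a product of the fat body, of whose 4 listed genes *apolpp* (0.87) and *Lsd-1* (0.86) rose too. The summed level of the fat body list was 332 to 373 CPM against 210 to 226 CPM in wild-type. Of 6 neuronal genes 3 rose, but the summed level of that list (253 to 331 CPM) overlapped wild-type (263 to 300 CPM). The part of these cell types was not tested. The prophenoloxidase gene *PPO1* rose by 0.84, from 159 to 170 CPM in wild-type to 283 to 303 CPM, while *lz* was at 0.34 ± 0.13 (FDR = 0.053).

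Without *CHES-1-like*, *Pvr* rose by 0.56 ± 0.05 (1.48-fold, FDR = 3.43e-09) and *crq* by 0.55 ± 0.05 (1.47-fold, FDR = 1.82e-08), 2 of 10 members with 6.24% of all genes rising, although with library totals as the scale *crq* was at −0.01 and *Pvr* at 0.00. *lz* fell by 0.50 ± 0.18 (FDR = 0.049), 1 of 10 with 9.19% of all genes falling. This call of *lz* stood at the fold criterion and was lost without replicate 3 of wild-type or without replicate 3 of the other group (−0.391). *gcm* (0.48 ± 0.06, FDR = 8.99e-07), *gcm2* (0.46 ± 0.11, FDR = 0.0044) and *srp* (0.42 ± 0.05, FDR = 1.52e-06) passed the FDR alone, as did *ush* (0.22), *Pxn* (0.20) and *drpr* (0.15), and *Hml* was at 0.37 ± 0.26 (FDR = 0.381). These values are relative to TMM factors: scaled by protein-coding totals, *Pvr* was at 0.47 and *crq* at 0.46 and neither passed, and library totals moved the median of all genes to −0.56. Among effectors, *Sr-CI* (0.62) and *sn* (0.69) rose on the TMM scale, but with library totals 0 effectors rose and 2 fell.

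The 3 genes of the ligands of *Pvr* were examined as well. *Pvf1* fell against wild-type in all 5 genotypes, by 1.67 without *jumu*, 1.63 without *CHES-1-like*, 1.97 without both, 1.18 with excess *jumu* and 1.52 with excess *CHES-1-like*, on the log2 scale. It was at 5.23 to 5.61 CPM in the wild-type samples, which all these comparisons share, and at 2.79 CPM or less in the other 20 samples. *Pvf2* rose without *jumu* (1.54), in the double loss-of-function (1.79) and with excess *jumu* (0.83) from a low level of 0.269 to 0.697 CPM in wild-type. *Pvf3*, at 43.6 to 52.5 CPM in wild-type, was not called in any of the 5 comparisons with wild-type.

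Around the engulfment receptors, 7 further genes of corpse uptake were examined. *Ced-6*, which encodes an adaptor that binds Draper, rose without *jumu* (0.68), without *CHES-1-like* (0.68) and without both (0.66) and fell by 0.70 with excess *CHES-1-like*. In each comparison of a loss-of-function genotype with wild-type it was the 1 gene of this list that was called (with library totals as the scale, 0 of the 7 were called without *CHES-1-like*). *Rac1*, a small GTPase gene, rose with excess *CHES-1-like* (0.51) on the TMM scale but was not called without replicate 1 (0.35) or with library or protein-coding totals, and *Ced-12*, *mbc*, *Shark*, *Src42A* and *prtp* were not called against wild-type in any genotype.

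**Figure D3:**
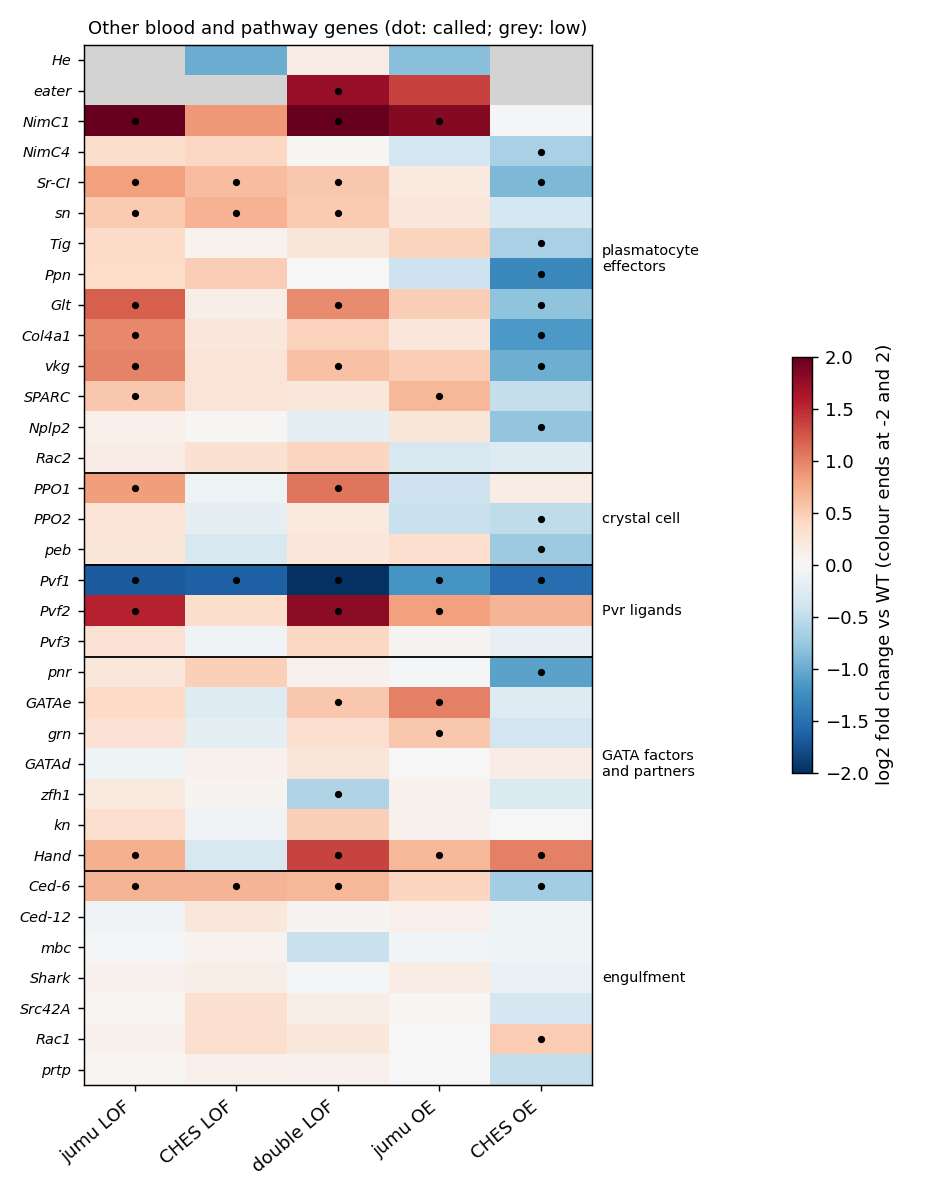
Log2 fold change against wild-type (colour, ending at −2 and 2) of 34 further genes of blood cells and pathways in the 5 other genotypes, with dots for genes that passed the test and grey for genes under the filter on low expression. Dots are red in the first column for 7 plasmatocyte effectors without *jumu*, blue in the last column for 8 with excess *CHES-1-like*, and blue for *Pvf1* in all 5 columns.

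Without both Fox genes, 3 members changed on the TMM scale. Against wild-type, *Hml* rose by 1.54 ± 0.25 on the log2 scale (2.91-fold, FDR = 9.18e-04), *crq* rose by 0.53 ± 0.08 (1.45-fold, FDR = 3.61e-04) and *Pxn* fell by 1.06 ± 0.12 (2.09-fold lower, FDR = 6.22e-05). These were 2 of 10 members higher, where 11.9% of all genes rose, and 1 of 10 lower, where 12.8% fell. *srp* (−0.08 ± 0.07), *drpr* (−0.05 ± 0.07) and *lz* (−0.08 ± 0.15) had FDR values from 0.51 to 0.79, and *gcm* (−0.22), *gcm2* (−0.38), *ush* (−0.40) and *Pvr* (0.21) passed the FDR within the fold criterion. Without replicate 2, *Hml* was at 1.63, *crq* at 0.57 and *Pxn* at −0.96, and *ush* passed too, at −0.54. Scaled by protein-coding totals *crq* was at 0.485 and did not pass. Of the plasmatocyte effectors 6 of 14 rose and 0 fell (3 rose with protein-coding totals, 9 with library totals). Without replicate 2, 5 rose, as *Sr-CI* (0.30) and *sn* (0.19) no longer passed and *Col4a1* (0.54) did. Of the 3 crystal cell genes 1 rose on the TMM scale, *PPO1*, and 0 fell. Of 4 fat body genes 2 rose and of 6 neuronal genes 3. The summed level of the neuronal list was 501 CPM in replicate 2 and 219 to 232 CPM in the other 3, below the 263 to 300.1 CPM of wild-type, and the part of these cell types was not tested.

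The direct comparisons with each single genotype showed what the second loss was accompanied by. Against *jumu* loss-of-function, *ush* was lower by 0.71 ± 0.11 on the log2 scale (FDR = 0.0027) and *Pxn* by 0.62 ± 0.12 (FDR = 0.0084), 2 of 10 members with 5.67% of all genes lower, and 0 were higher, whereas with library totals *ush* (−0.23) and *Pxn* (−0.125) did not pass and *crq* (0.59) and *Hml* (0.97) were higher. Without replicate 2, 5 members were called: *Hml* (0.58) was then higher, and *gcm* (−0.50) and *lz* (−0.51) lower as well. Against *CHES-1-like* loss-of-function, *Pxn* was lower by 1.24 ± 0.12 (FDR = 1.91e-05). *gcm2* was lower by 0.83 ± 0.14 (FDR = 0.0016), *gcm* by 0.68 ± 0.10 (FDR = 2.97e-04) and *ush* by 0.62 ± 0.11 (FDR = 0.0020), although with library totals these 3 lay above 0, at 0.04, 0.17 and 0.23. In all 4 of 10 members were lower, with 8.91% of all genes lower, whereas with library totals 0 were called lower and 5 higher, and *Pxn* was at −0.369 and did not pass. On the TMM scale *srp* passed too without replicate 2, at −0.54. *Hml* was higher by 1.17 ± 0.24 (FDR = 0.0045), 1 of 10 with 11.8% of all genes higher. Library totals moved the median of all genes to 0.52 against *jumu* loss-of-function and to 0.90 against *CHES-1-like* loss-of-function. In each, 8 of the 10 members lay below that median, a position that a change of scale, moving all genes about alike, could hardly alter.

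Whether the double genotype departed from the sum of the single effects was tested as an interaction over the 16 samples of wild-type, both single genotypes and the double. The interaction was negative, with the double lower than the sum, for *gcm* (−0.95 ± 0.11, FDR = 4.25e-06), *ush* (−0.94 ± 0.13, FDR = 4.48e-05), *Pxn* (−0.82 ± 0.13, FDR = 2.85e-04), *Pvr* (−0.79 ± 0.08, FDR = 4.63e-07), *srp* (−0.72 ± 0.09, FDR = 1.23e-05) and *gcm2* (−0.66 ± 0.19, FDR = 0.031), each of which lay above 0 with library totals as the scale. Thus 6 of 10 members had a negative interaction past the criteria and 0 a positive one, where 6.23% of all genes had a negative one, whereas with library totals 0 were called negative and 4 positive (*lz*, *Hml*, *drpr* and *crq*). For *Pvr*, the single effects sum to 1.00 on the log2 scale and the double was at 0.21. For *srp* the sum was 0.65 and the double −0.08. *crq* (−0.46 ± 0.09) and *drpr* (−0.39 ± 0.08) passed the FDR within the fold criterion, and *lz* (0.10 ± 0.25) and *Hml* (0.09 ± 0.32) had FDR values of 0.96 and 1.00. *Hml* thus had a double value of 1.54, near its sum of 1.44. Among plasmatocyte effectors 6 of 14 had a negative interaction and 1, *He*, a positive one at the counting limit. *zfh1* (−0.84), which encodes a zinc finger factor of mesoderm and blood, and *pnr* (−0.62) had a negative interaction too, and with library totals none of these lists had a gene below 0.

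The size of the interaction depends on the scale. The share of protein-coding counts differed among these genotypes (30.7 to 38.0% without *CHES-1-like*, 59.7 to 61.8% without both), and its part in this was not tested. With library totals, the median interaction of all genes was 1.08 and the 6 called members lay between 0.09 and 0.40. In each scaling tried, TMM, library totals and protein-coding totals, 8 of the 10 members lay below the median of all genes, and *lz* and *Hml* lay above it. A change of scaling moves all genes by about the same amount, so this position could hardly differ between scalings and does not test the interaction. Without replicate 2 of the double genotype the same 6 members were called, with *gcm2* at −0.57 as the smallest and *ush* at −1.06 as the largest.

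**Figure D4:**
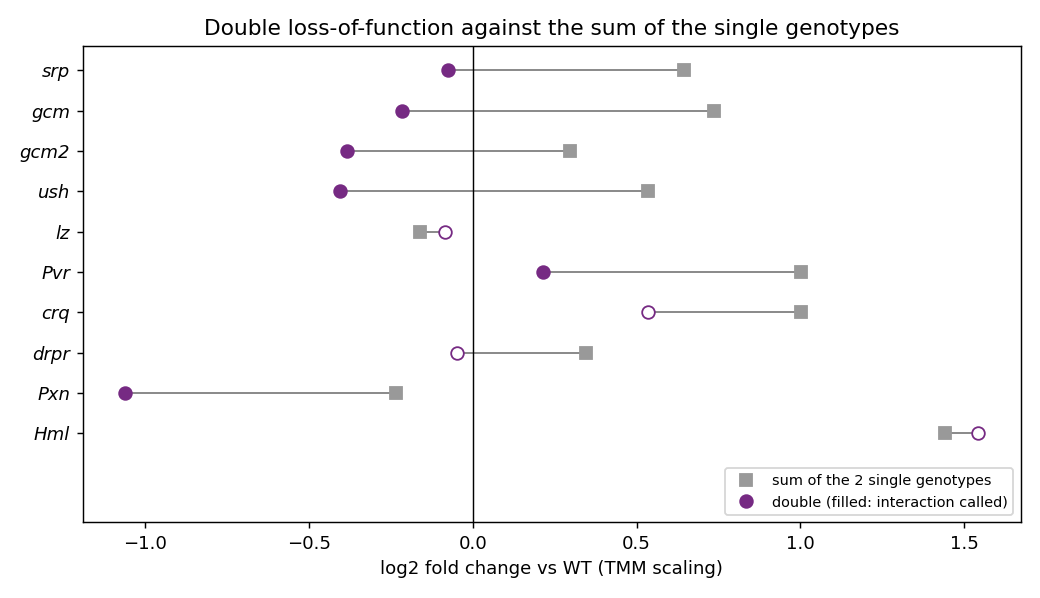
Log2 fold change against wild-type (TMM scaling) in the double loss-of-function (circles, filled where the interaction passed the test) beside the sum of the log2 fold changes of the 2 single genotypes (grey squares), for each member. The circle lies left of the square for 8 members under this scaling (with library totals the interactions of all 10 lie above 0), and close to it for *lz* and *Hml*.

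Ratios of members within a library do not depend on the scale. In wild-type, *Pxn* had 1.96 ± 0.06 counts per count of *srp* (SD, n = 4). Without *CHES-1-like* the ratio was 1.69 ± 0.17 and overlapped wild-type through its highest sample (1.89). The ratio was 1.24 ± 0.07 without *jumu*, 1.00 ± 0.20 without both Fox genes (0.694 in replicate 2 and 1.09 to 1.11 in the others) and 1.17 ± 0.05 with excess *jumu*, none of which overlapped wild-type, whereas it was 1.96 ± 0.32 with excess *CHES-1-like*. In *CHES-1-like* overexpression, where both genes fell, the ratio was 1.48 in replicate 1, below the wild-type samples (1.87 to 2.00), and 2.10 to 2.16 in the other 3, above them. *crq* moved the other way: its ratio to *srp* was 0.645 ± 0.033 in wild-type, 0.751 ± 0.040 without *jumu* and 0.990 ± 0.106 in the double loss-of-function. Neither of these loss-of-function groups overlapped wild-type. The ratio without *CHES-1-like* (0.711 ± 0.058) overlapped it, as did those with excess *jumu* (0.566) and excess *CHES-1-like* (0.611). The ratio of *Pxn* to *crq* went from 3.04 ± 0.17 in wild-type to 1.65 ± 0.08 without *jumu*, 2.37 ± 0.05 without *CHES-1-like* and 0.998 ± 0.116 without both. These 3 groups lay apart from wild-type and from one another.

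The ratio of *gcm* to *srp* was 0.258 ± 0.003 in wild-type, 0.262 ± 0.018 without *jumu*, 0.269 ± 0.019 without *CHES-1-like* and 0.196 ± 0.018 with excess *CHES-1-like*, the latter below all wild-type samples. In the double loss-of-function (0.234 ± 0.016) and with excess *jumu* (0.239 ± 0.015) it overlapped wild-type through 1 of 4 samples each. The ratio of *gcm2* to *gcm* was 0.109 ± 0.018 in wild-type and 0.0697 ± 0.0263 with excess *CHES-1-like*, where the samples ranged from 0.0453 to 0.0938 and reached into the wild-type range. Without *jumu* it was 0.0798 ± 0.0089, and all samples (0.0698 to 0.0911) lay below those of wild-type (0.0927 to 0.1313). In the remaining genotypes it overlapped wild-type. The ratio of *lz* to *srp* was 0.0158 ± 0.0021 in wild-type, 0.0084 ± 0.0031 without *CHES-1-like* and 0.0084 ± 0.0010 with excess *jumu*, both without overlap with wild-type. The ratio of *Hml* to *srp* was 0.0041 ± 0.0014 in wild-type. It was 0.0078 ± 0.0011 without *jumu*, 0.0132 ± 0.0034 without both and 0.0125 ± 0.0022 with excess *jumu*, none of which overlapped wild-type. Without *CHES-1-like* (0.0042 ± 0.0009) and with excess of it (0.0046 ± 0.0009) the ratio overlapped wild-type.

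**Figure D5:**
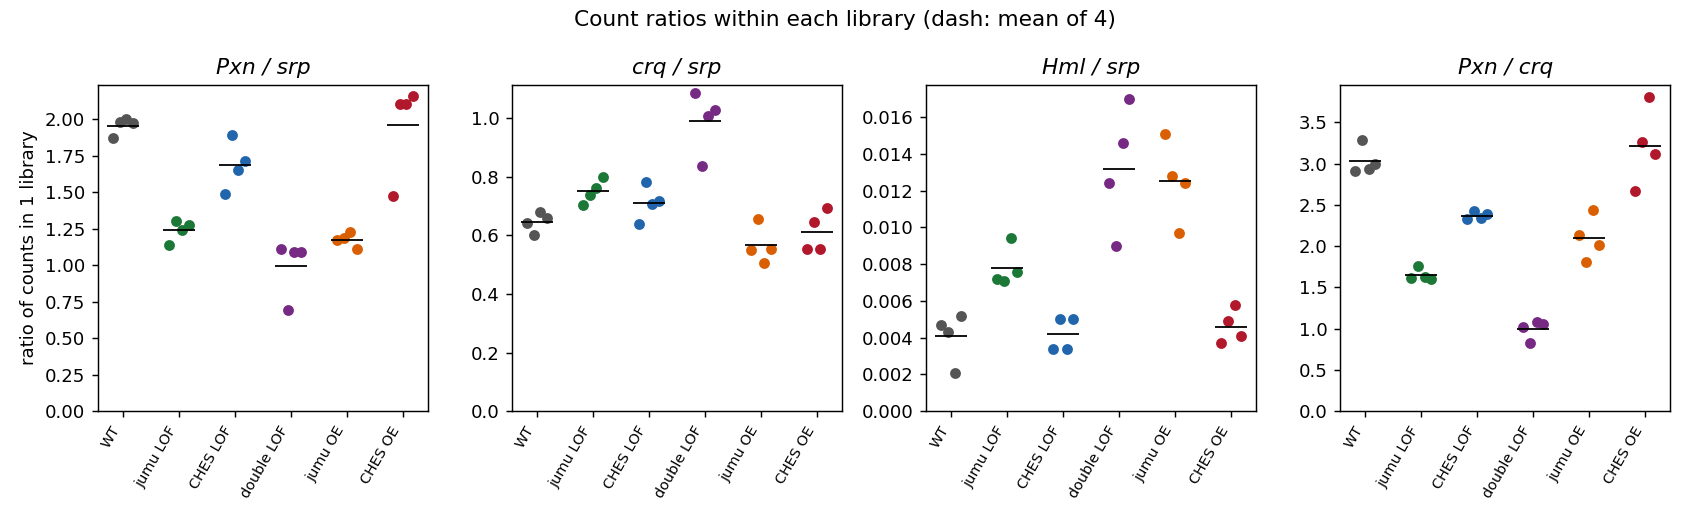
Ratio of the counts of 2 members within each library, by genotype (WT, wild-type; LOF, loss-of-function; OE, overexpression; CHES, *CHES-1-like*), with points for the 4 replicates and dashes for the mean. All samples of *Pxn* over *srp* lie below wild-type in 3 of the genotypes shown, the double loss-of-function having the lowest mean (1.00), and *crq* over *srp* has its highest mean (0.990) there. In *CHES-1-like* loss-of-function the mean of *Pxn* over *srp* is also lower (1.69), with overlap.

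The pattern of each member over the 6 genotypes was compared with that of the others, by the root-mean-square difference of the genotype means of log2 CPM after centring each gene. *srp* and *Pvr* were most alike (0.129), and *gcm* was nearest to *srp* (0.155), *ush* to *srp* (0.187), *drpr* to *Pvr* (0.141), *crq* to *Pvr* (0.144) and *gcm2* to *gcm* (0.238). *Hml* was the farthest from each of the other 9, with its nearest member at 0.661. Among 8030 other genes with at least 1 CPM in each genotype mean, the 3 most like *srp* were *vri* (0.0454), *CG9662* (0.0483) and *hipk* (0.0490), the 3 most like *Pvr* were *Act5C* (0.0682), *CG30463* (0.0694) and *Act79B* (0.0697), and the 3 most like *Pxn* were *mei-W68* (0.123), *CR45805* (0.124) and *snoRNA:Psi28S-3316c* (0.134). These are descriptions over 6 genotype means and not tests. By this measure *Pvr* ranked 56 among the genes most like *srp*.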

How the data were processed

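The counts per gene were deposited by the authors as 1 table of whole numbers for 17476 genes and 24 samples, without normalization. The authors made stranded total RNA libraries and mapped the reads with TopHat2 to Release 6 of the genome, and the submitters' processing notes also name SAMtools and HTSeq. The strand setting of the counting is not given in the sources used here, so counts of overlapping genes are uncertain. Positions, exon lengths and overlaps were read from an Ensembl annotation of that assembly, which holds 17199 of the identifiers. No sequences were used.

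Samples were grouped by the genotype in the labels, with each column matched to its sample by name. Every test was run in R 4.3.3 with edgeR 4.0.16 on the samples compared: TMM factors over all genes, quasi-likelihood test on genes with at least 1 count, Benjamini-Hochberg adjustment over all 17476 genes, and no call for genes in the lowest 30% by average log2 CPM. A call needs an FDR below 0.1 and a log2 fold change beyond 0.5. The interaction was fitted over 16 samples. Standard errors were derived from the F statistics. Levels in CPM use TMM factors over all 24 samples, and levels per kb divide by annotated exonic length. The fit was tested on simulated data beforehand.

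No pair of replicates within a genotype (36 pairs) differed by less than sampling noise. The replicates are biological by the series' design text. Limits of 3 counts cover counting error only, since no molecular identifiers are named in the sources used here.

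The members and the gene lists were chosen with earlier results of these data known, so they are described by counts beside those of all genes. The genes named are the 10 members, the targeted genes, up to 4 called genes with the largest change of each list, defining markers near 0 and the 3 genes most like *srp*, *Pxn* and *Pvr*; others are named where a count of a list is spelled out. Alternatives were RLE factors, library totals, DESeq2 1.42.0, no exclusion of low genes, filterByExpr, a stricter FDR (0.05), a single fit over the 24 samples, a replicate block and leaving out each sample in turn. Totals of protein-coding genes were added after seeing the data.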

Additional observations from a re-analysis of the deposited data

Results flagged for a closer look

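Of 60 sets of 4 replicates (10 members in 6 genotypes), 9 held a sample far from the other 3 by Dixon's test, where chance gives about 3. In replicate 2 of the double loss-of-function *gcm2* was at 3.554 CPM (4.97 to 5.299 in the others), *ush* at 65.6 CPM (47.66 to 47.81), *crq* at 191.1 CPM (212.2 to 214.7) and *Pxn* at 158.3 CPM (220.1 to 229.1), so that 4 of the 9 fell in this library. In replicate 1 of the same genotype *Pvr* was at 230.4 CPM (221.1 to 222.1). *ush* was at 62.44 CPM in replicate 1 of *CHES-1-like* overexpression (43.79 to 46.46). *Pxn* was at 455.8 CPM in replicate 1 of *CHES-1-like* loss-of-function (504.5 to 513.4) and at 315.3 CPM in replicate 3 of *jumu* overexpression (262.1 to 270.4). *Hml* was at 0.4676 CPM in replicate 3 of wild-type (1.005 to 1.143), one of the smallest libraries.

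The effect of losing *CHES-1-like* differed with and without *jumu*, by the interaction test in edgeR on the TMM scale, for *gcm* (−0.947), *ush* (−0.9431), *Pxn* (−0.8242), *Pvr* (−0.7851), *srp* (−0.7209) and *gcm2* (−0.6576), all of which lay above 0 with library totals as the scale. The cause was not tested.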

How the results depend on the processing

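Over 90 values, 10 members in 9 comparisons, RLE factors, DESeq2, no exclusion of low genes, filterByExpr alone and an FDR below 0.05 changed no call. The fit of all 24 samples added *Hml* in *CHES-1-like* overexpression, and the replicate block lost *lz* without *CHES-1-like* (−0.48), leaving 2 members called there, and changed no other call. The deviations of same-numbered samples correlated above 0.1 in 1 to 3 of the 4 pairs of a comparison, and in 0 to 3 of them best with their own number, so the numbers were not taken as pairs.

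Library totals, which moved the median of all genes by up to 1.08 on the log2 scale, changed the most. With them 2 members were called without *jumu*, *Hml* and *Pxn* (−0.614). Without *CHES-1-like* 1 was called, where protein-coding totals also left 1, and *crq* was at −0.01 there with library totals. In the double against the *CHES-1-like* single genotype, *gcm* was then at 0.169, *gcm2* at 0.037, *ush* at 0.233, *Pvr* at 0.523, *crq* at 0.863 and *drpr* at 0.673. The interactions were then 0.327 for *srp*, 0.094 for *gcm*, 0.398 for *gcm2*, 0.097 for *ush*, 0.267 for *Pvr*, 0.597 for *crq*, 0.245 for *Pxn* and 0.661 for *drpr*. Relative to the median of all genes these 8 interactions kept a negative sign, which a change of scale, moving all genes about alike, could hardly alter. With protein-coding totals *gcm2* lost its interaction call (−0.56).

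With each replicate left out, the members called numbered 1 without *jumu*, 2 to 3 without *CHES-1-like*, 3 to 4 in the double, 3 in *jumu* overexpression, 7 to 9 in *CHES-1-like* overexpression, 2 to 5 and 5 to 6 in the double against the *jumu* and *CHES-1-like* single genotypes, 6 to 7 between the overexpression genotypes and 6 in the interaction. The 5 came without replicate 2 of the double, and the 9 without replicate 3 of wild-type, where *ush* and *Hml* passed. The causes were not tested. Depth limits *Hml*, *lz* and *gcm2*, which rest on few counts in the smaller libraries.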

Other observations

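Beyond the blood genes, *Hand*, which encodes a transcription factor of the heart and its associated blood-forming tissue, rose without *jumu* (0.72 on the log2 scale), in the double loss-of-function (1.34) and with excess *jumu* (0.67) or *CHES-1-like* (1.00), from 3.22 to 4.50 CPM in wild-type to 7.75 to 12.3 CPM in the double. Its fitted change without *CHES-1-like* was −0.33 and did not pass on the TMM scale (−0.86 with library totals, which passed). *GATAe*, an endodermal GATA factor gene, rose with excess *jumu* by 1.00 and in the double by 0.53, a call that protein-coding totals as the scale ended (0.48). These comparisons share the wild-type samples.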
